A study of Rattus norvegicus with 16 samples.

Results

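In the discs taken 2 weeks after surgery, 2392 of 93925 cells were in none of the IVD (intervertebral disc), endothelial, myeloid or lymphoid classes. The whole series held 149272 cells. Classes were read from the column that the authors supplied. In it, IVD cells are named Chondrocyte or Chondrocyte cell, myeloid cells Macrophage and lymphoid cells Immune cells. The 2392 cells are the ones described here, and they were chosen by that column alone. Discs came from 4 male Sprague-Dawley rats, 8 weeks old at surgery, numbered 1 to 4. In each rat the L4-5 and L5-6 discs were stabbed with a needle (lumbar disc puncture, LDP), and the L2-3 and L3-4 discs of the same animal were left unpunctured as control (CON). The 2 discs of each kind were pooled into 1 library, so that each group held 4 libraries and a control disc shared its animal with the punctured ones. The authors drew and named clusters separately in CON and in LDP, so the cells that were left without a name need not be of one kind in both groups.

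The marker genes attached to these cells point to vessel walls and nerves. Mural cells wrap small vessels: pericytes sit on capillaries and express Rgs5, a regulator of G-protein signalling, and smooth muscle cells surround arterioles and contract through Acta2, the smooth muscle actin, and Myh11, its myosin partner. Schwann cells are the glia of peripheral nerve and need the transcription factor Sox10, and those that myelinate make Mbp, a structural protein of the sheath. In a healthy disc both vessels and nerves are found at its rim, in the outer annulus and the endplates.

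The cells without class name numbered 730, 100, 433 and 330 in CON rats 1 to 4 and 23, 249, 304 and 223 in LDP rats 1 to 4. As shares of their libraries these were 6.19, 2.57, 3.21 and 2.46% in CON and 0.264, 1.56, 2.06 and 1.86% in LDP. The means were 3.61 ± 1.75% (SD, n = 4) and 1.44 ± 0.808% (SD, n = 4), and every LDP library lay below every CON library. No test was made of that difference, because the classes were cut apart in each group. The libraries held 3896 to 15918 cells, and the median number of UMIs (unique transcript molecules) of the cells without class name was 1851 to 5324 in CON and 5591 to 8203 in LDP. Their median was below that of the IVD cells of the same library in 4 of 4 CON libraries and above it in 4 of 4 LDP libraries, by little in LDP rat 3 (5591 against 5557) and LDP rat 4 (8201 against 7924). Of the 2392 cells, 70 (2.93%) bore a barcode that also occurred in another 2-week library, against 2.29% of all cells.

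**Figure D1:**
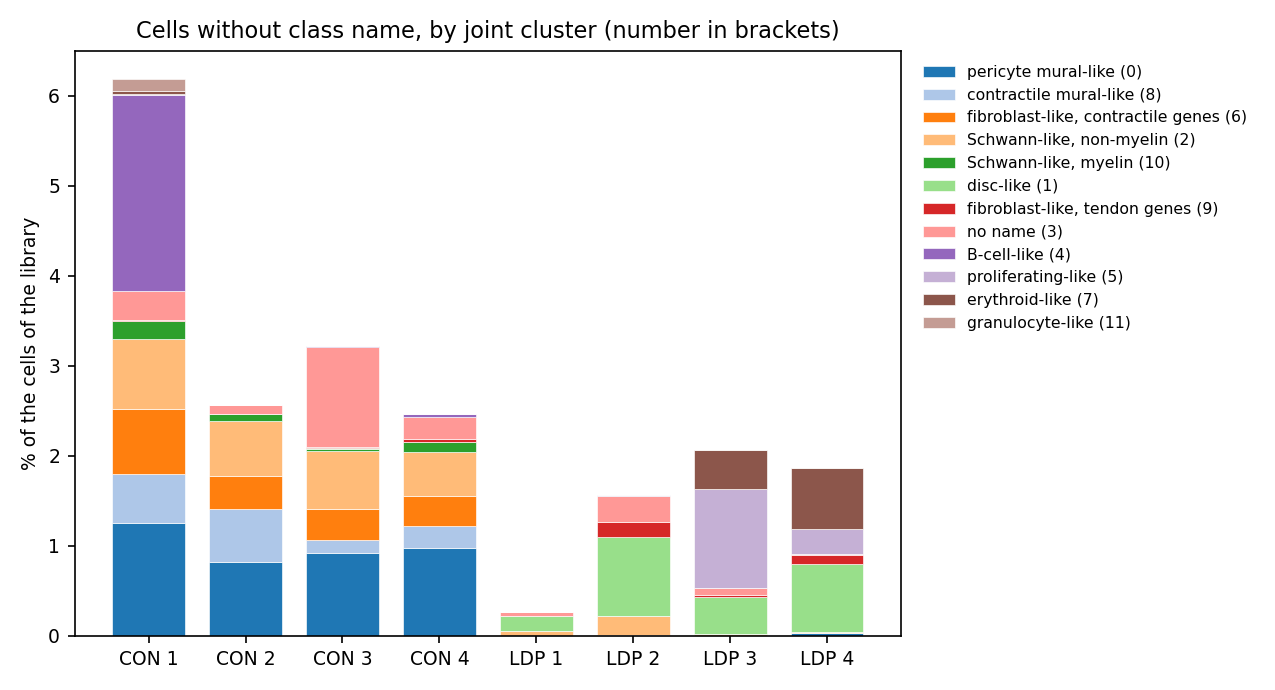
Bars show the cells without class name as a percentage of all cells of each of the 8 libraries, split by the 12 joint clusters drawn from these cells. CON bars share mural-like, Schwann-like and fibroblast-like clusters, with B-cell-like cells in CON rat 1 and an unnamed cluster in CON rat 3 on top, while LDP bars hold disc-like cells and, in rats 3 and 4, proliferating-like and erythroid-like cells.

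The markers were present as labelled in CON, in part in LDP rats 1 and 2, and near or below the named classes in LDP rats 3 and 4. Mean Rgs5 was 799, 1145, 647 and 1472 CPM (counts scaled to the same total in each cell) in the cells without class name of CON rats 1 to 4, and at most 33.0 CPM in any named class of these libraries. In LDP rats 1 to 4 it was 131, 86.9, 8.56 and 10.8 CPM, which in rats 2 to 4 was below the level in the endothelial class (100.1, 54.7 and 29.2 CPM). The CON and LDP values did not overlap.

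Acta2 showed the same division, with 284, 490.1, 116 and 327 CPM in CON and 138, 37.5, 17.8 and 6.39 CPM in LDP. Here LDP rat 1, with only 23 cells, exceeded CON rat 3. Its Rgs5, Acta2 and Sox10 were also above every named class of that library, which reached 46.4 CPM of Rgs5, 17.2 CPM of Acta2 and 0.684 CPM of Sox10. Sox10 was at 16.1, 42.3, 22.8 and 53.0 CPM in CON, at 11.5 and 4.47 CPM in LDP rats 1 and 2, at 0.319 CPM in LDP rat 3 and at 0 in LDP rat 4, where 0 of 223 cells had a Sox10 UMI (95% Clopper-Pearson upper bound 1.64%). No named class of a CON library exceeded 0.350 CPM of Sox10.

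Mbp was the least particular of the markers. It was at 128, 174, 55.2 and 214 CPM in CON and at 44.0, 17.6, 7.11 and 6.88 CPM in LDP, but the myeloid class carried it too, at 58.0 to 119 CPM in CON. The log2 ratio of the cells without class name to the highest named class was 0.74 for Mbp in CON (−0.98 to 1.72, above 0 in 3 of 4 libraries), and it became −0.12 when counts were summed over cells rather than averaged per cell.

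**Figure D2:**
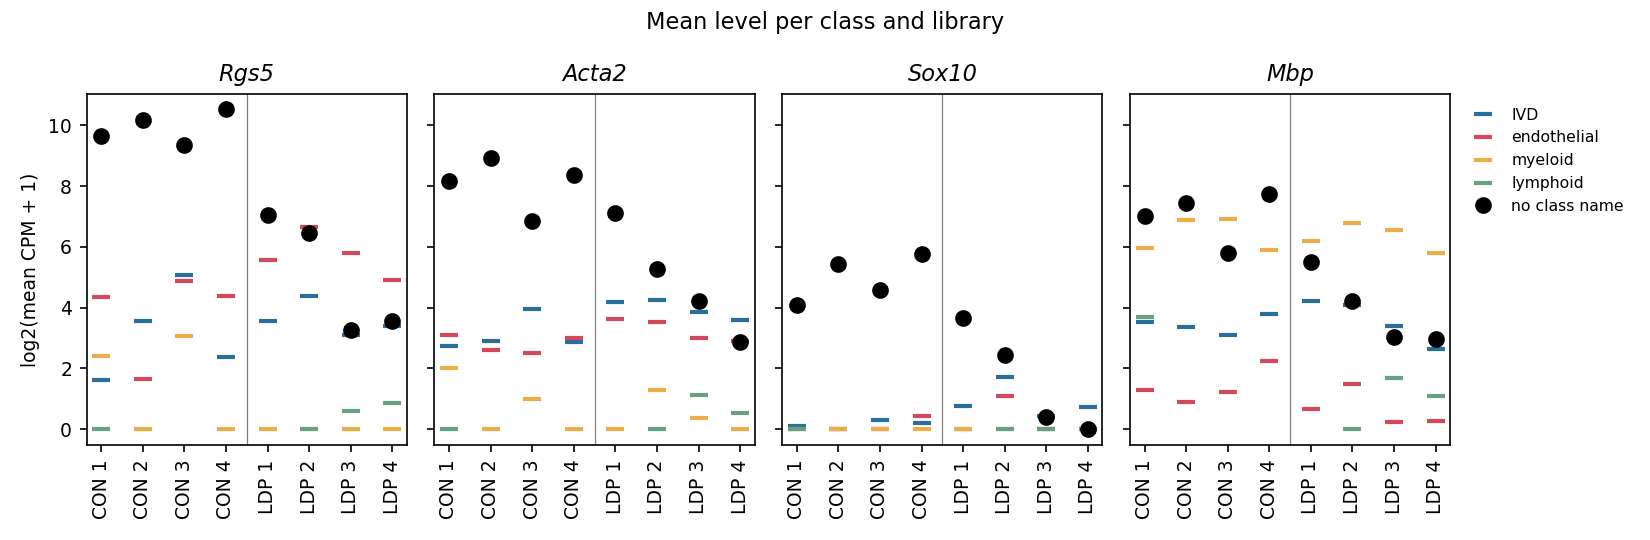
Mean level, as log2(mean CPM + 1), of Rgs5, Acta2, Sox10 and Mbp in each class of each library with at least 20 cells; black points are the cells without class name. Black points lie far above the named classes for Rgs5, Acta2 and Sox10 in CON and come down among them in LDP rats 3 and 4.

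Against the named classes, the CON cells were led by genes of contraction and of glia. Ratios below are the median over 4 libraries of log2((mean CPM + 10) in these cells over the same in the highest named class), and since the classes were cut from the same genes they are a description without a test. The 15 leading genes were above every named class in 4 of 4 CON libraries. The contractile ones among them were Tagln (transgelin, 5.58, with 1144 to 2453 CPM), Myh11 (5.18), Tpm2 (a tropomyosin, with 666 to 1419 CPM), Acta2 (4.18) and Myl9 (the smooth muscle myosin light chain, 3.88). Rgs5 had a ratio of 5.21.

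Glial genes among the 15 included Scn7a (a sodium channel relative of non-myelinating Schwann cells, 4.72), Col28a1 (a collagen of peripheral nerve, 4.47) and Abca8a (3.77). Cryab, a small heat shock protein found in both muscle and glia, led the list at 5.92, with 1220, 1579, 1849 and 1366 CPM in CON rats 1 to 4. Others were Npy1r (a receptor of neuropeptide Y, 4.68), Sncg (4.29), Fst (the activin antagonist follistatin, 3.77) and C1qtnf1 (3.74). In the background, of 3034 genes with 50 CPM or more in these cells of at least 2 CON libraries, 141 (4.65%) lay 2-fold or more above the highest named class by that median.

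In LDP the 15 leading genes were of another kind, and belonged to red cell precursors of rats 3 and 4. Ahsp, the chaperone of alpha globin, was at 0 in LDP rats 1 and 2 and at 2647 and 5357 CPM in rats 3 and 4. Slc4a1, the anion exchanger of the red cell membrane, was at 0, 0.459, 660 and 1025 CPM. Hba-a2, an alpha globin, reached 33290 and 57090 CPM in rats 3 and 4 and 0 and 15.5 CPM in rats 1 and 2. Hemgn, Car2, Hbb, Alas2 and Klf1, all genes of the erythroid line, had the same distribution over rats. None of the 15 was above every named class in all 4 LDP libraries. In the background, 3038 genes had 50 CPM or more in these cells of at least 2 LDP libraries. Of these, 43 (1.415%) lay 2-fold or more above the highest named class by the median ratio.

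The cell types were then read from a joint clustering of the 2392 cells, in which 12 clusters formed and were named only from marker lists, as "like" a type. For mural cells there were 439 cells of a pericyte mural-like cluster, of which 148, 32, 124 and 131 came from CON rats 1 to 4 and 4 from LDP. All 18 mural markers exceeded 10 CPM in it. Rgs5 averaged 1737 CPM and Abcc9 and Kcnj8, the channel pair of pericytes, 317 and 85.4 CPM, whereas Acta2 was at only 116 CPM. Ednrb (endothelin receptor B, 1028 CPM), Enpep (aminopeptidase A, 568 CPM) and Steap4 (360 CPM) were among its leading genes. Endothelial genes were present too, with Kdr, the VEGF receptor, at 167 CPM and Cdh5, VE-cadherin, at 419 CPM. In this cluster 63 of 436 cells (14.4%) held at least 3 mural and 3 endothelial marker genes when cells were thinned to 1000 UMIs, against 1.06% in the endothelial class. At a finer resolution 177 of the 439 cells fell into endothelial-like clusters and 226 remained in mural-like ones.

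A contractile mural-like cluster held 138 cells (64, 23, 19 and 32 in CON rats 1 to 4, 0 in LDP). Myh11 averaged 3684 CPM, Acta2 1167 CPM, Des (desmin) 616 CPM and Mylk, the kinase that starts contraction, 1051 CPM, while Kcnj8 was at 0.992 CPM. Pln (phospholamban, 163 CPM) and Xirp1 (844 CPM), genes of striated and smooth muscle, were also high. The Notch targets Hey2 (557 CPM) and Nrarp (470.5 CPM) and the ligand Jag1 (317 CPM) were above their level in the pericyte mural-like cluster (114, 101 and 147 CPM).

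A further 193 cells (85, 14, 47 and 45 in CON, 2 in LDP) joined fibroblast and contractile genes. They were named fibroblast-like from Igfbp6 (2278 CPM), Lum (lumican, 1851 CPM) and their kin, but also had Tagln at 4801 CPM, Myh11 at 1882 CPM and Rgs5 at 1392 CPM. Actg2, the enteric smooth muscle actin, averaged 336 CPM, against 70.6 CPM in the contractile mural-like cluster. The chemokine Ccl11 was at 622 CPM, Cxcl1 at 2340 CPM and Eln (elastin) at 537 CPM. At the finer resolution 42 of the 47 cells of CON rat 3 formed a cluster without a name of that rat alone, and the cells of the other rats stayed fibroblast-like but for 2.

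Schwann-like cells fell into a non-myelin and a myelin cluster. The first held 309 cells, 92, 24, 87 and 66 from CON rats 1 to 4 and 5, 32, 2 and 1 from LDP rats 1 to 4. Scn7a averaged 1374 CPM against 2.20 CPM in the other cells without class name, Cdh19 452 CPM, Sox10 118 CPM and Gfra3, a receptor for artemin, 289 CPM. Genes linked to immature or repair Schwann cells were measured there too, with Ngfr (the low-affinity neurotrophin receptor) at 399 CPM, Sox2 at 355 CPM, Gfap at 215 CPM and Gap43 at 214 CPM.

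The 32 cells of LDP rat 2 stood apart within that cluster. Their Cdh19 was 96.6 CPM against 429 to 644.5 CPM in the CON libraries, their Sox10 28.4 against 66.9 to 228 CPM, and their Acan (aggrecan, the main disc proteoglycan) 2357 against 265.5 to 692 CPM. At the finer resolution 29 of these 32 fell into a disc-like cluster, as did 6, 1, 8 and 9 cells of CON rats 1 to 4. That resolution kept only 92 of all 309 cells in a Schwann-like cluster and put 153, all from CON, in one without a name. Only 1 cell without class name of LDP rat 2 passed the marker rule for Schwann cells described below.

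The myelin Schwann-like cluster had 43 cells (23, 3, 2 and 14 in CON rats 1 to 4, 1 in LDP rat 2). Pmp22, a myelin protein, averaged 11530 CPM, Mbp 3647 CPM and Prx (periaxin) 581 CPM, and Drp2, which partners periaxin, had 533 CPM against 0.130 CPM in the other cells. Gap43 and Gfra3 were at 0 in these cells, which with 43 cells allows a share of cells with a UMI of up to 8.22% (95% Clopper-Pearson upper bound).

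**Figure D3:**
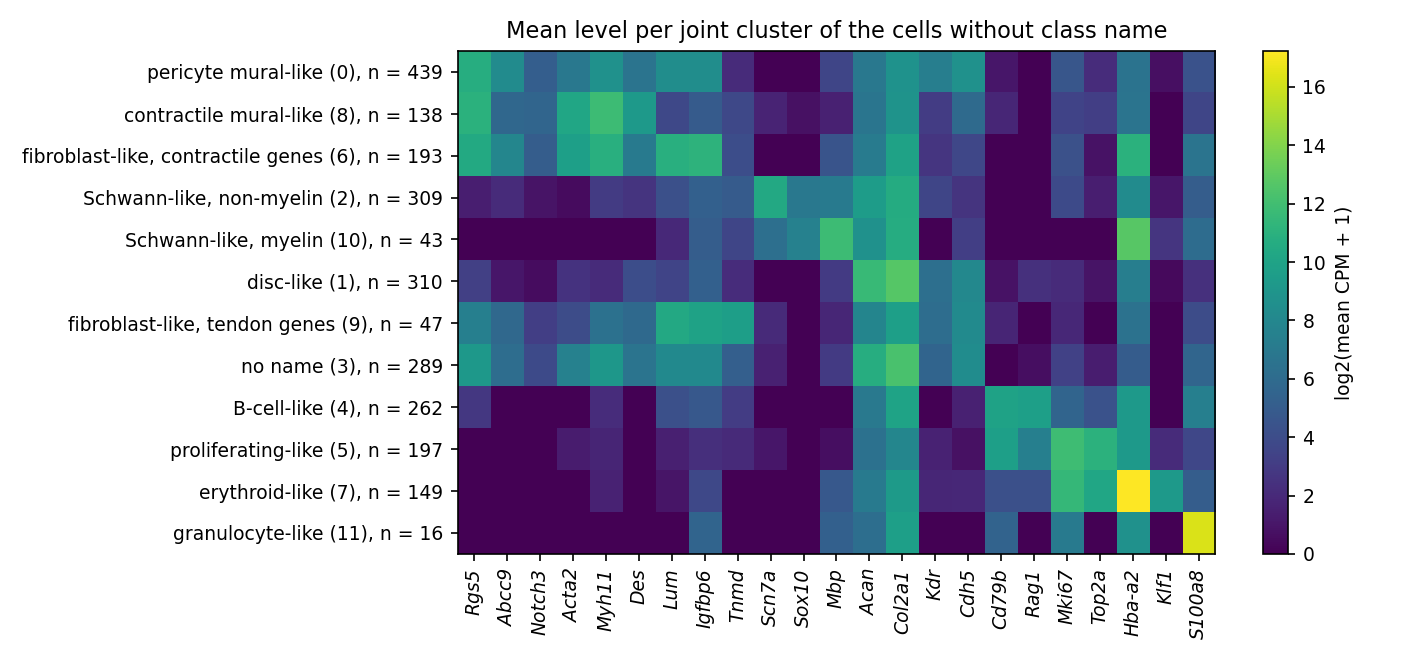
Mean level, as log2(mean CPM + 1), of marker genes (columns) in the 12 joint clusters (rows, with their cell number). Rgs5 marks the mural-like and contractile fibroblast-like rows, Scn7a and Mbp divide the Schwann-like rows, and Acan is highest in the disc-like row (3095 CPM) and next in the no-name row (1703 CPM).

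The LDP cells were made up otherwise. A disc-like cluster of 310 cells took 14 of 23, 140 of 249, 62 of 304 and 91 of 223 cells in LDP rats 1 to 4 and 3 cells of CON. Called cell by cell on their own markers at 1000 UMIs, however, 93 of 644, 6 of 97, 151 of 433 and 71 of 329 cells of CON rats 1 to 4 were also disc (mean 19.3%, against 63.6% in LDP). Holding at least 3 disc marker genes at that depth was not confined to disc cells. It was seen in 31.9% of the endothelial, 23.7% of the myeloid and 37.55% of the lymphoid class over all libraries. In the disc-like cluster Acan averaged 3095 CPM and Snorc, a cartilage proteoglycan, 4519 CPM. These cells were deep (median 7964 UMIs) and also held endothelial transcripts: Cdh5 averaged 267 CPM, with 373, 349, 254 and 137 CPM in LDP rats 1 to 4, against 0.640 to 5.01 CPM in the IVD class of the same libraries. In their endothelial class Cdh5 was at 1206, 1241, 1033 and 600 CPM.

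At 1000 UMIs per cell, 45 of these 310 cells (14.5%) held at least 3 disc and 3 endothelial marker genes. In the IVD class of LDP the share was 0.0239% and in the endothelial class 20.6%. A cluster left without a name because its leading genes tied between lists (289 cells, 150 of them from CON rat 3 and 45 from LDP rat 2) had 20.4% of such cells, with a median of 6485 UMIs, Col2a1 at 5098 CPM, Rgs5 at 594 CPM and Myh11 at 562 CPM. A fibroblast-like cluster of 47 cells, 27 from LDP rat 2 and 11 from LDP rat 4, expressed tendon genes, with Tnmd (tenomodulin) at 820 CPM and Col1a1 at 42600 CPM. The study kept only cells between lower and upper limits of gene and UMI counts. Apart from these limits, neither the labels nor its methods say how droplets with several cells were handled. No doublet caller was run, and the part of doublets in these values was not tested.

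Blood-forming cells filled the remaining clusters, most cells of each coming from 1 or 2 rats. A B-cell-like cluster held 262 cells, 257 of them from CON rat 1, where it made up 35.2% of the cells without class name (95% Clopper-Pearson interval 31.7 to 38.8%). Cd79b, the signalling chain of the B-cell receptor, averaged 988 CPM, Rag1, the recombinase of receptor assembly, 839 CPM and Cd74, the MHC class II chaperone, 1922 CPM, while Mki67, the proliferation antigen, was at 48.0 CPM in the CON rat 1 cells. These cells were shallow, with a median of 1159 UMIs. Their name did not hold at the finer resolution, where no B-cell-like cluster formed and 151 and 104 of the 257 cells fell into separate clusters without a name. The B-cell list summed to 3118 and 4292 CPM in those clusters, against 533 and 530.2 CPM in the other cells. At 1000 UMIs, 68 of 644 cells without class name of CON rat 1 (10.6%) passed the rule for B cells on their own markers.

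A proliferating-like cluster of 197 cells came from LDP rat 3 (161 cells) and LDP rat 4 (33 cells). Mki67 averaged 3706 CPM and Top2a, the topoisomerase of dividing cells, 2116 CPM, together with Cd79b at 854 CPM, Blnk at 733 CPM and the surrogate light chain gene Igll1 at 249 CPM. At 1000 UMIs, 94 of its 196 deep enough cells (48.0%) held 3 proliferation and 2 B-cell markers.

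The named lymphoid class showed the reverse arrangement of dividing cells. In CON rat 1 it had 3242 CPM of Mki67, far above the B-cell-like cells left without a name, whereas in LDP rats 3 and 4 it had 261 and 172 CPM, far below the proliferating-like cells.

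The erythroid-like cluster (149 cells, 64 from LDP rat 3, 81 from LDP rat 4 and 4 from CON rat 1) had Hba-a2 at 154700 CPM, Slc4a1 at 2991 CPM and Mki67 at 3109 CPM in LDP rat 3 and 2484 CPM in LDP rat 4. A granulocyte-like cluster of 16 cells came from CON rat 1 alone, with S100a9 at 113900 CPM and the granule genes Ngp and Mmp8 at 32030 and 9683 CPM. T and NK cells and megakaryocytes had few markers to show. Of the 14 T and NK genes only 5 are listed in the files, without Cd3e, Cd3d or Trac, and their summed level was 186 CPM in the B-cell-like and 213 CPM in the proliferating-like cluster and at most 3.12 CPM in the other 10. The 2 megakaryocyte genes listed stayed below 10 CPM in all 12 clusters.

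Because CON and LDP were named apart, cells of all classes were next called by their own markers. Each cell of 1000 or more UMIs was thinned to that number and called mural or Schwann when it held at least 3 genes of that list and more than of any other of the 21 lists. This left out 90 CON and 7 LDP cells without class name. Mural marker cells numbered 153, 49, 79 and 126 in CON rats 1 to 4 and 39, 119, 54 and 70 in LDP rats 1 to 4. Schwann marker cells numbered 73, 18, 36 and 36 in CON and 35, 120, 26 and 38 in LDP.

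The name these cells carried was split by group. In CON, 98.0, 95.9, 91.1 and 95.2% of the mural marker cells had no class name. In LDP the figures were 0, 0.840, 0 and 1.43%, and 229 of the 282 cells (81.2%) were called IVD and 51 endothelial. With 0 of 39 cells in LDP rat 1, a share of up to 9.02% is allowed by the 95% Clopper-Pearson interval.

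Schwann marker cells were divided still more sharply. Without class name were 97.3% in CON rat 1 and 100% in CON rats 2 to 4, against 0, 0.833, 0 and 0% in LDP rats 1 to 4. Of the 219 Schwann marker cells of LDP, 217 (99.1%) were called IVD.

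**Figure D4:**
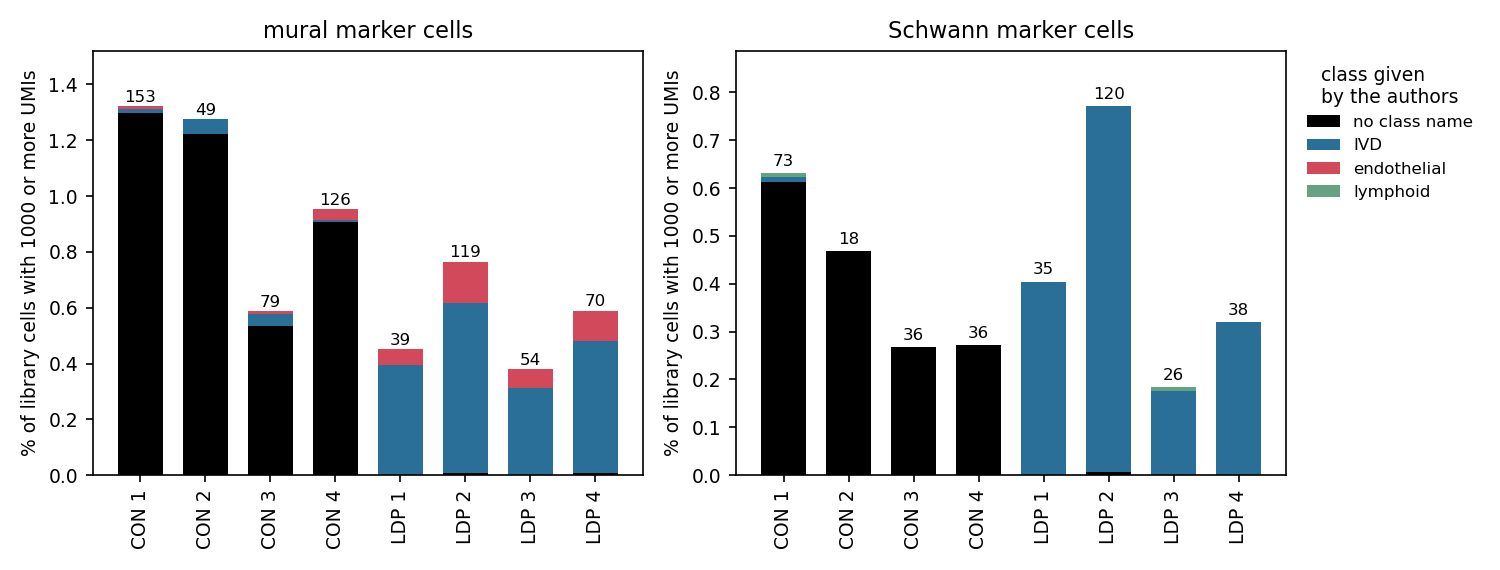
Mural marker cells (left) and Schwann marker cells (right) as a percentage of the library's cells with 1000 or more UMIs, coloured by their class name, with cell numbers above the bars. Bars are almost wholly black (no class name) in CON. In LDP they are blue (IVD), with a red part (endothelial) that makes up 51 of the 282 mural marker cells.

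As a share of the library, mural marker cells were 1.32, 1.27, 0.587 and 0.954% in CON rats 1 to 4 and 0.451, 0.765, 0.381 and 0.590% in LDP rats 1 to 4. LDP was below CON in 4 of 4 rats, though CON rat 3 lay within the LDP range. The means were 1.03 ± 0.341% and 0.547 ± 0.169% (SD, n = 4 each), and the difference of −0.488 percentage points did not pass an exact permutation test of the 8 libraries (two-sided, p = 0.0857, adjusted over the 2 cell types p = 0.171). The smallest p this exact test allows is 0.0286.

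Schwann marker cells made up 0.631, 0.468, 0.267 and 0.272% in CON and 0.405, 0.771, 0.184 and 0.320% in LDP. They were higher in LDP in 2 of 4 rats, with means of 0.410 ± 0.175% and 0.420 ± 0.251% (SD, n = 4 each), a difference of 0.0102 percentage points (exact permutation p = 1, adjusted p = 1). With sign flips within rats, which cannot go below p = 0.125, the exact permutation p was 0.125 for mural and 1 for Schwann marker cells.

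Expression was compared between LDP and CON within the cells without class name by limma on log2(mean CPM + 1), with rat as block. Both sets were left over from classes cut apart by expression in each group. Of the pooled mural marker cells, 95.6% had no class name in CON and 0.709% in LDP. The calls below therefore describe sets of unlike makeup and are not a test of change within a cell type. Of 8544 genes tested, 53 passed an adjusted p of 0.05 (0.62%), all of them lower in LDP, and 0 (0%) were higher. At an unadjusted p under 0.05, 416 genes (4.87%) were higher and 1250 (14.6%) lower. Pparg, the lipid and vessel regulator, was at 46.3, 120, 76.3 and 79.9 CPM in CON rats 1 to 4 and at 0, 5.66, 3.68 and 1.98 CPM in LDP, a change of −4.64 ± 0.39 (SE, log2, limma adjusted p = 0.0472). C7, a complement component made by stroma, had the largest change, −5.61 ± 0.67 (SE, limma adjusted p = 0.0472), from 92.0 to 226 CPM in CON to at most 14.4 CPM in LDP.

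Rgs4 (−4.32), the potassium channel subunit Abcc9 (−3.90), Notch3 (−4.05), Hey2 (−3.76) and Pdgfrb (−3.63), the receptor through which pericytes are recruited, were lower, as were Gucy1a2 (−4.24) and Gucy1b3 (−3.56), subunits of the nitric oxide receptor, the adrenoceptors Adra2a (−4.09) and Adra2b (−3.98) and the angiotensin receptor Agtr1a (−4.07). Gucy1b3, Adra2b and Agtr1a were picked after their values were seen. In each of these genes, as in every gene called, the 4 LDP libraries lay below the 4 CON libraries. Since the genes were chosen as called lower, this adds nothing to the calls. The others named by the fixed rule were Npy1r (−4.38), Trarg1 (−4.21), Cdh2 (−4.19), Nsg1 (−4.13) and Adamts15 (−4.09).

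Of the 53 genes, 21 (39.6%) had their highest mean in the contractile mural-like cluster, beside 6.74% of all genes tested. The contractile fibroblast-like cluster had 17 (32.1%, beside 6.03%) and the pericyte mural-like one 8 (15.1%, beside 4.00%). The myelin Schwann-like cluster had 4 (7.55%, beside 12.8%) and the non-myelin one 3 (5.66%, beside 6.48%), both below their share of all genes. Since the 53 were chosen as lower in LDP, and the first 3 of these clusters held 0, 2 and 4 LDP cells, these counts are a description only.

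Of the lists, mural markers had 4 of 18 tested genes called lower, beside 0.62% of all genes, and 0 higher. Their median change was −3.81, against −0.16 over all genes tested, and edgeR and DESeq2 each called 16 of the 18 lower. DESeq2 called 1 of the 18 higher and edgeR 0. Over all genes tested, edgeR called 5.03% and DESeq2 9.28% lower, and 1.33% and 5.3% higher. The smooth muscle contraction list had 1 of 14 called lower (Tpm2, −3.82) and a median of −3.63, with 12 called by edgeR (5.03% of all genes) and 13 by DESeq2 (9.28%). The list of PDGF and Notch signals had 3 of 11 called lower and a median of −2.72, with 7 and 9 called at the same background shares.

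Schwann markers had 0 of 13 called and a median of −3.34, and at an unadjusted p under 0.05 there were 10 lower and 1 higher in LDP, beside 14.6% and 4.87% of all genes. Of these 13, edgeR called 2 lower (5.03% of all genes) and DESeq2 9 (9.28%). DESeq2 called 1 of the 13 higher and edgeR 0. Disc markers had 0 of 14 called, a median of 2.03 and 14 of 14 above 0, and edgeR called 9 (1.33% of all genes) and DESeq2 13 (5.3%) of them higher. The erythroid and proliferation lists had larger medians, 3.20 (10 of 10 above 0) and 2.45 (11 of 11 above 0), with 0 called by limma. With rat 1 left out, limma called 0 disc and 7 proliferation markers higher, beside 87 of 8118 genes. A gene could pass the filter of 10 CPM in 2 libraries through LDP rats 3 and 4 alone, where most erythroid-like and proliferating-like cells lay. Such a gene is bound to lie above 0, so the counts for these lists are a description only. Among the genes higher in LDP with the smallest p, Vrk2 had a change of 3.11 (limma adjusted p = 0.0539) and Smox of 2.17 (limma adjusted p = 0.0545). The makeup of the cells moved with these values, as mural-like clusters formed 41.6 ± 12.5% (SD, n = 4) of the cells without class name in CON and 0.437 ± 0.635% in LDP.

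The calls varied with the rats included. No gene was called when rat 2, 3 or 4 was left out, and 538 were called without rat 1, whose LDP library had 23 cells, including 52 of the 52 still tested. With 1 rat left out the change of Pparg was −4.84 to −4.33, that of Rgs4 −4.66 to −4.00 and that of C7 −6.31 (without rat 2) to −5.05 (without rat 4). No cluster had 20 or more cells in 3 libraries of each group, so that no gene test could be made within a cluster.

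The same fit was therefore run on the mural marker cells of any class, a comparison chosen after the class names had been seen. Of 7978 genes tested, 0 passed the adjusted p of 0.05 by limma (0%), 134 (1.68%) were higher and 205 (2.57%) lower at an unadjusted p under 0.05, and edgeR and DESeq2 called 2 genes each. Rgs5 was at 2196, 1640, 1405 and 2470 CPM in CON rats 1 to 4 and at 2292, 1677, 1367 and 814 CPM in LDP, with overlapping groups (change −0.39 ± 0.40, SE, limma adjusted p = 0.999). Abcc9 had a change of 0.03 ± 0.33, Pdgfrb of 0.17 ± 0.31, Notch3 of −0.26 ± 0.46 and Hey2 of −0.25 ± 0.32 (SE), where all 4 had been called lower within the cells without class name. The cells were called in both groups by holding genes of the mural list, which partly fixes the level of mural genes. These values are therefore a description and not a test of that difference.

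The mural list had a median change of 0.11 in these cells, against −0.06 over all genes, though these genes also served to call the cells. The contraction list had a median of 0.15, the vascular basement membrane list of −0.37 with 1 of 11 genes above 0, and the fibrosis and matrix list of −0.23 with 1 of 16 above 0. The linker histone gene Hist1h1c, one of the lowest in p, was at 271, 753, 305 and 89.8 CPM in CON and at 90.3, 205, 51.4 and 29.2 CPM in LDP, lower in 4 of 4 rats (−1.90 ± 0.32, SE). Its limma adjusted p was 0.999, and it was the 1 gene called by both edgeR (adjusted p = 0.0237) and DESeq2 (adjusted p = 0.00253). Col14a1 (−2.68) and Mfap5 (−1.69), both of the fibroblast matrix, and Lxn (1.43) and Shox2 (2.23) were among the values of smallest p that did not pass.

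**Figure D5:**
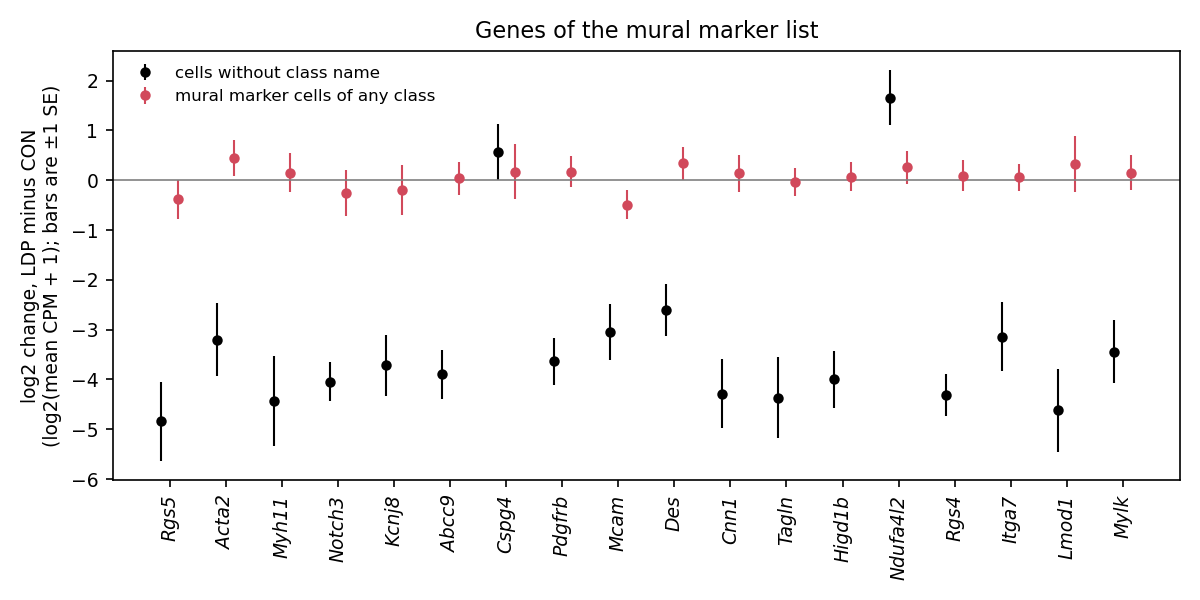
Change from CON to LDP (LDP minus CON of log2(mean CPM + 1), bars ± 1 SE from limma) for the 18 genes of the mural marker list, in the cells without class name (black) and in mural marker cells of any class (red). Black points run from −4.84 (Rgs5) to −2.61 (Des) except for Cspg4 (0.57) and Ndufa4l2 (1.66), and red points from −0.49 (Mcam) to 0.44 (Acta2). The same 18 genes served to call the cells of the red points.

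In the Schwann marker cells of any class, CON rat 2 had 18 cells and was left out, which also took LDP rat 2 out of the comparison within rats. Of 8249 genes, 0 were called by limma (0%), edgeR or DESeq2, and 105 (1.27%) were higher and 216 (2.62%) lower at an unadjusted p under 0.05 by limma. The myelin list had a median change of −0.72 with 0 of 9 genes above 0, against −0.15 over all genes. Genes of the Schwann list also served to call these cells, which partly fixes the level of glial genes.

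The immediate early genes had a median change of 0.59 in Schwann marker cells, against −0.15 over all genes. Of these, 15 of 16 were above 0 and 0 had an unadjusted limma p under 0.05. The same list had a median of 0.12 in mural marker cells, with 11 of 16 above 0. In the cells without class name its median was −1.41, with 1 of 16 above 0. Jun, which drives the repair state of Schwann cells, was at 1731, 2603 and 1951 CPM in CON rats 1, 3 and 4 and at 3118, 3699 and 2860 CPM in LDP, higher in 3 of 3 rats (0.64 ± 0.53, SE, limma adjusted p = 0.953). The repair list as a whole had a median of −0.13 with 4 of 10 above 0, and Ngfr (−0.14), Gap43 (0.03) and Gfap (−0.11) all had overlapping groups. No gene of these lists was called in these 7 libraries.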

How the data were processed

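Single-cell 3′ RNA libraries of 8 disc pools were read by the authors, who used Partek (version and aligner not given in the sources used here) and, per the processing notes, build rn6. As deposited, gene values are log2(CPM + 1) per cell. The authors' total of each cell is an expected count, the number of expressed genes a count and the mitochondrial and ribosomal reads a percent. Dividing out the total returned whole numbers (within 0.02) for 99.4 to 99.5% of values. The deposited classes were kept, with Chondrocyte and Chondrocyte cell written as IVD, Macrophage as myeloid and Immune cells as lymphoid. Files of 8 weeks served only to count cells.

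The members and lists were chosen with earlier results of these data known. Mean CPM was averaged over cells of a library with at least 20 such cells. Joint clusters came from Leiden (scanpy 1.11.5, resolution 0.5, 2000 variable genes, 30 components, 15 neighbours), and a cluster took the name of the list with most markers among its 10 leading genes, with 3 or more among the first 25, and none where lists tied. That naming rule was set after values were seen. Genes were fitted with limma 3.58.1 on log2(mean CPM + 1), rat as block, for genes of at least 10 CPM in 2 libraries, with Benjamini-Hochberg adjustment. The plan of edgeR as main test held only for deposited counts, so edgeR 4.0.16 and DESeq2 1.42.0 on rounded recovered counts became alternatives. Fits were also run on data simulated from a single mean profile shared by all libraries. The real libraries differ in cell makeup, so that run says little of the fits reported here. Named genes were the 4 markers, the 15 leading genes per group, up to 10 per cluster, up to 10 called genes per direction (or 5 of smallest p) and list members as examples. A few genes that this rule names are not reported here.

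Rats pair the libraries because control and punctured discs were taken from the same animals. Libraries were matched by the number in their titles, and equal numbers were taken to mean the same rat. Deviations of same-rat libraries from their group means correlated at −0.458, 0.225, −0.335 and −0.122 in the cells without class name, and at −0.0569 to 0.0531 in the marker cells. The fits on marker cells were chosen after seeing the data. Intervals (95% Clopper-Pearson) cover counting error only.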

Additional observations from a re-analysis of the deposited data

Results flagged for a closer look

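In CON, 4 of the cluster shares had 1 library far from the other 3, and all were CON rat 1. The gap to the nearest library divided by the whole range was 0.966 for B-cell-like cells (35.2, 0, 0.231 and 1.21% of the cells without class name in rats 1 to 4), and 1 for erythroid-like (4 cells), proliferating-like (1 cell) and granulocyte-like cells (16 cells), each absent from the other 3 libraries. The value 1 follows whenever the other 3 libraries are at 0, whatever the number of cells, so it says nothing of size. The B-cell-like value passes the 95% critical value of Dixon's test, and 32 groups of 4 libraries were examined, of which chance picks about 5%. With so few cells the erythroid-like and proliferating-like values rest on single cells.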

How the results depend on the processing

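Genes called lower in LDP within the cells without class name numbered 53, against 444 with no replicate block, 282 with a pseudocount of 10 CPM, 0 without the filter, 430 by edgeR, 793 by DESeq2 and 0 to 451 with 1 rat left out. Genes called higher numbered 0, against 88, 15, 0, 114, 453 and 0 to 87 in the same order. The 53 kept their direction in all of these fits that tested them, and 48 of them were called by edgeR and 52 by DESeq2. In mural marker cells edgeR and DESeq2 called 2 genes lower each. As means over CON libraries, the mural-like share of 41.6% became 26.4% at resolution 1.0 and 56.3% at resolution 0.25, the Schwann-like share of 21.9% became 11.3% at resolution 1.0 and 12.2% when each cell was named by its markers, the fibroblast-like share of 13.0% became 0 at resolution 0.25 and 6.57% by markers, and the disc-like share of 0.191% became 1.73%, 9.48% and 19.3%. The B-cell-like share of CON, 9.16%, became 0 at resolution 1.0 and 2.64% by markers, and the endothelial-like share, 0, became 16.6% and 7.505%. In LDP the disc-like share of 44.6% became 63.6% and the B-cell-like share of 0 became 1.27% by markers. At resolution 1.0 the Schwann-like share of LDP was 0.201%, against 9.02%. The Schwann marker cells of LDP without class name went from 0.208 to 0.833% with all UMIs and 5 genes. Mbp in CON changed from 0.74 to −0.12 with summed counts. The cause of these shifts was not tested. With 1 rat left out, the mural share differed by −0.582 to −0.360 percentage points and the Schwann share by −0.0875 to 0.0890, and the replicate block as sign flips within rats left both differences, −0.488 and 0.0102, unpassed. Comparisons within single clusters were not run, since no cluster qualified. The number of cells, 23, limits what can be said of LDP rat 1, and depth that of CON rat 1. There, 86 of 730 cells were under 1000 UMIs in rounded recovered counts and 85 by the authors' total.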
